A study of Mus musculus with 12 samples.

Results

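The Clk and Srpk splicing kinases were described in unstimulated CD8 T cells of groups labelled Foxp3 scurfy and Foxp3 wild type. The members are the 6 genes Clk1, Clk2, Clk3, Clk4, Srpk1 and Srpk2, taken by symbol from the deposited table of unstimulated cells, and all 6 of them are among its 11581 genes. They were chosen with the contrast between scurfy and wild type cells already known, so their differences are given as descriptions, without a test.

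The study sequenced messenger RNA of purified mouse CD8 T cells in 12 samples, 3 in each of 4 groups. Samples were labelled either Foxp3 scurfy, a loss-of-function allele, or Foxp3 wild type. Their cells were left unstimulated (0 h) or given the ovalbumin peptide SIINFEKL for 6 h. The donor marrow of both genotypes carried the OT-1 T cell receptor, which recognises that peptide. The scurfy group came from mixed bone marrow chimeras made with OT-1 Foxp3Scurfy CD45.1+/2+ marrow and marrow of CD45.2+ donors. The wild type group came from chimeras made with OT-1 Foxp3wt CD45.1+/2+ marrow and the same kind of second donor. The strain is given as CD45.2+ C57BL/6 J, and cells were taken 2 months after reconstitution. The labels do not state which donor's CD8 T cells were kept, nor whether the 3 libraries of a group came from separate mice, so the spread between them may be technical. The stimulated groups were not analysed here, and neither was Foxp3 itself, which leaves the genotypes as labelled.

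Serine/arginine-rich (SR) proteins choose splice sites in pre-messenger RNA, and phosphorylation of their arginine/serine repeats governs where they are and what they bind. Srpk kinases act mainly in the cytoplasm and phosphorylate SR proteins so that they can be imported into the nucleus. Clk kinases (Cdc2-like kinases) act in the nucleus, where further phosphorylation releases SR proteins from nuclear speckles, and in T cells these factors take part in alternative splicing of receptors such as CD45.

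Clk kinases are known as LAMMER kinases, after a signature of amino acids in the kinase domain, which the Clk3 stretch below does not spell exactly. The coding stretch at that place is shown because it lets the 4 paralogs be compared at the same part of the kinase domain, which bears on whether reads of one gene could be counted for another. It lies in exon 11 of 13 of the protein-coding transcript used for each gene. Coordinates are from GENCODE M21 on GRCm38, and capitals in the other genes mark bases that differ from Clk1.
Clk1, chr1:58412979-58413011, minus strand: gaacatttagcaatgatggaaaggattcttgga
Clk2, chr3:89175407-89175439, plus strand: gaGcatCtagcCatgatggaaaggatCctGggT
Clk3, chr9:57752147-57752179, minus strand: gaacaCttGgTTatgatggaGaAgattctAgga
Clk4, chr11:51280373-51280405, plus strand: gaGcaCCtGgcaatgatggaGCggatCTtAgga

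Over these 33 bases Clk2 differed from Clk1 at 6 positions, Clk3 at 7 and Clk4 at 9. Over whole transcripts, the longest run of identical bases between members of the same family was 34 bases, between Clk1 and Clk4. No 50-base word was shared between members. Over whole transcripts, 1.89% of the 50-base words of Srpk1 occurred in transcripts of 180 other genes, and 0.776% of those of Clk3 in 1. The other members had no such words. In the last 500 bases, where libraries primed at the poly(A) tail concentrate their reads, no 50-base word of any member occurred in a transcript of another gene. Clk3 and Srpk2 have exons that overlap those of Edc3 and Kmt2e on the opposite strand, and an exon of Clk4 overlaps Gm25082, a gene of the miscellaneous RNA class without a row, on the same strand. The sources used here do not say if reads were counted by strand. The values of Clk3, Clk4 and Srpk2 may therefore include reads of those neighbours, or lack reads of their own from the overlaps.

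The 6 unstimulated libraries held 8852518 to 23149523 reads in the table's genes, the deepest being wild type library 2. Values are normalized counts, read counts divided by a size factor per library, in which 3 reads correspond to 1.45 to 3.99. The lowest member value rests on 650 reads (Clk4 in scurfy library 2). Scurfy library 3 stood apart from its group on the first principal component, which held 35.8% of the variance, at -43.5 against -14.4 and -18.6. Wild type library 2 was at 12.3 against 33.8 and 30.4, and on the second component the wild type libraries were at -40, 9.26 and 33.8. The CD8 T cell identity genes were all measured (11 of 11), with a summed level of 85370 to 92410 in scurfy and 77700 to 78990 in wild type. None of the 3 CD4 T cell markers had a row. Of the B cell markers 7 of 12 had a row, and their summed level was 9895 to 11350 in scurfy and 10970 to 11750 in wild type, most of it from Ighm (9504 to 10970 and 10420 to 11210). All 7 log2 fold changes were negative, with a median of -0.99 against 0.01 for all genes. Scurfy values lay below all wild type values in 4 genes (Cd74, H2-Aa, H2-Ab1 and H2-Eb1), against 13.7% of all genes. These 4 genes each had a mean under 50 normalized counts. With genes under that mean left out, the median of the list was -0.17 and no gene of it passed. Of the 7, only H2-Aa, a class II antigen presentation gene, passed the test, on 13, 0 and 4 reads in scurfy and 43, 174 and 88 in wild type (limma adjusted p = 0.0164, but 0.0661 without wild type library 2 and 0.0706 without wild type library 3). At so few reads its log2 fold change was imprecise, -3.97 as fitted, -2.92 with a pseudocount of 5, -2.87 without scurfy library 2 and -4.91 without scurfy library 1. Only 1 of 9 myeloid markers (Cst3), 1 of 5 natural killer markers (Eomes) and 1 of 6 erythroid markers (Car2) had a row. Cst3 was at 1406 to 1523 in scurfy and 821.2 to 1131 in wild type (limma adjusted p = 0.0202). Car2 was at 101.3 to 156.0 against 231.5 to 314.7 (limma adjusted p = 0.0139). Eomes, which did not pass, was at 76.84 to 99.29 against 99.04 to 114.3. With 1 library left out, the Cst3 call ended in 3 of 6 fits (highest adjusted p 0.0815, without wild type library 2). The Car2 call ended in 1 (0.0645, without wild type library 3). The part of these other cell types in the kinase values was not tested, and in bulk samples fewer cells of a type and less RNA per cell cannot be told apart.

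Clk1 (ENSMUSG00000026034, chromosome 1) had lower values in every scurfy library than in any wild type library. Its normalized counts were 1883, 1916 and 1552 in the scurfy group (libraries 1, 2 and 3, an order kept below) and 2979, 3076 and 3112 in the wild type group. The groups did not overlap, with 1063 normalized counts between the highest scurfy and the lowest wild type library. Scurfy library 3 was the lowest of the 6, while the wild type libraries lay close together. The means were 1784 ± 201 and 3056 ± 68.9 (SD, n = 3 each), 41.6% lower in scurfy. On the log2(value + 1) scale used throughout, the difference was -0.78 (SE 0.11). Clk1 is an abundant transcript, with a mean above that of 94.7% of the genes in the table. Over all genes, 4.59% had a lower log2 fold change than Clk1, and among the 1828 genes with a mean of at least 1000 there were 9. Clk1 was chosen with this contrast known, and the cut of 1000 was not part of the plan. These ranks are therefore descriptions, and nothing is read from them.

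Clk2 (ENSMUSG00000068917, chromosome 3), which like Clk1 phosphorylates SR proteins and also acts in metabolic signalling in liver, had overlapping groups. Its normalized counts were 1376, 1156 and 1257 in scurfy and 990.3, 1332 and 1157 in wild type. The highest and the lowest of the 6 values came from scurfy library 1 and wild type library 1. The log2 difference was 0.13 (SE 0.13), and 0.02 without wild type library 1.

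Clk3 (ENSMUSG00000032316, chromosome 9) was slightly higher in scurfy, opposite in direction to Clk1. Its normalized counts were 1250, 1268 and 1090 in scurfy and 1024, 1067 and 1058 in wild type. The groups did not overlap, but only 22.7 normalized counts separated scurfy library 3 from wild type library 2. The means were 1203 ± 98.0 and 1050 ± 23.1 (SD, n = 3 each), a log2 difference of 0.19 (SE 0.11). The median absolute log2 fold change of all genes was larger, at 0.246.

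Clk4 (ENSMUSG00000020385, chromosome 11), the paralog with the longest run of bases in common with Clk1, did not share its pattern. Its normalized counts were 801.6, 793.3 and 920.8 in scurfy and 887.9, 909.6 and 698.3 in wild type. The groups overlapped, with scurfy library 3 the highest and wild type library 3 the lowest of the 6. The log2 difference was 0.02 (SE 0.13), and its sign turned when library 3 of either group was left out (-0.05 for scurfy, -0.10 for wild type).

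**Figure D1:**
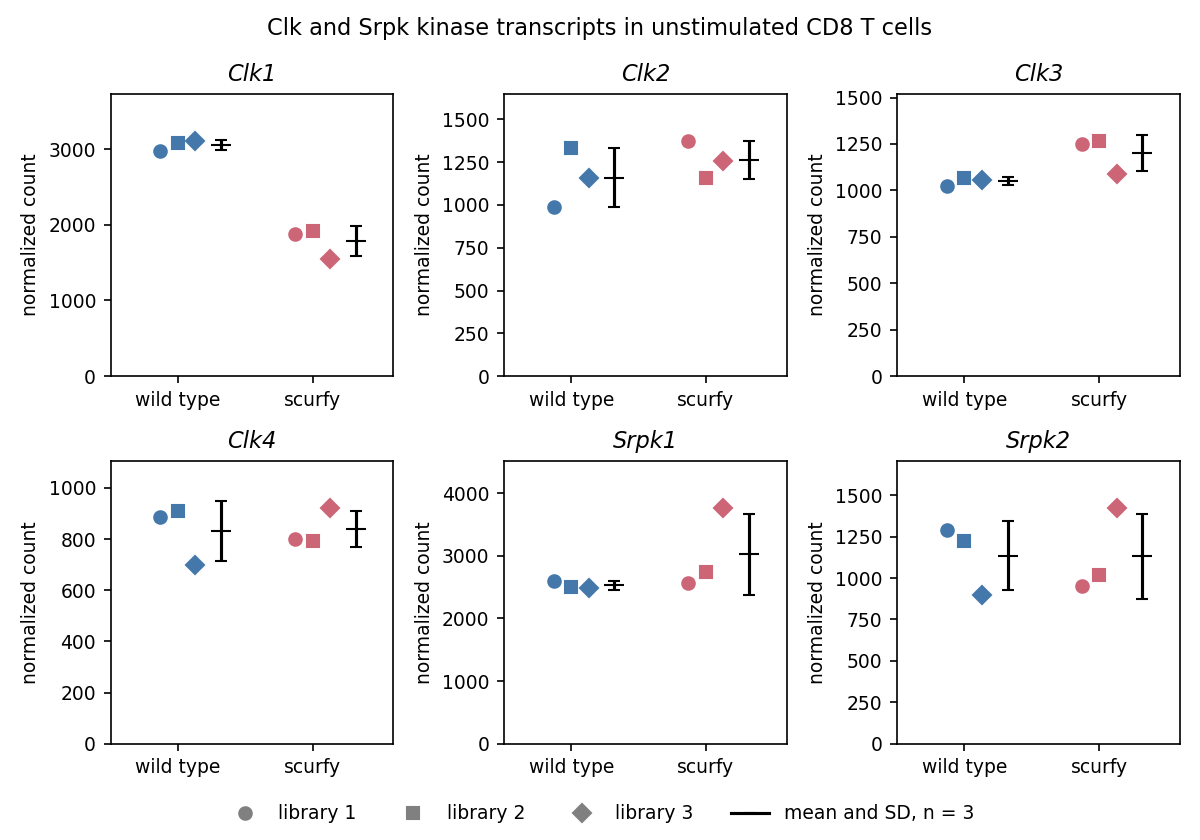
Normalized counts (y axis, from 0) of the 6 kinase genes in unstimulated wild type and scurfy CD8 T cells, 1 point per library, with the mean and SD of 3 libraries per group. Clk1 is the gene with a wide gap between groups, 1552 to 1916 in scurfy against 2979 to 3112 in wild type, and scurfy library 3 (diamond) is the highest point for Srpk1 and Srpk2.

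Srpk1 (ENSMUSG00000004865, chromosome 17), the more widely expressed SR protein kinase and a target of AKT signalling, was high in 1 scurfy library. Its normalized counts were 2562, 2745 and 3763 in scurfy and 2601, 2497 and 2483 in wild type. The groups overlapped, because scurfy library 1 lay below wild type library 1. The means were 3023 ± 647 and 2527 ± 64.4 (SD, n = 3 each), so the spread within scurfy exceeded the difference. The log2 difference of 0.24 (SE 0.13) became 0.07 without scurfy library 3.

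Srpk2 (ENSMUSG00000062604, chromosome 5), the related kinase prominent in brain, had nearly equal means and a wide spread in both groups. Its normalized counts were 949.3, 1021 and 1422 in scurfy and 1287, 1222 and 895.5 in wild type. The groups overlapped, with scurfy library 3 the highest and wild type library 3 the lowest of the 6. The log2 difference was -0.01 (SE 0.17), and -0.19 without scurfy library 3, but it was positive, up to 0.10, without scurfy library 1 or 2 or wild type library 1 or 2. Scurfy library 3 thus held the lowest Clk1 and the highest Clk4, Srpk1 and Srpk2 value of all 6 libraries.

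In the fit across all genes, 1 of the 6 members (Clk1) passed the adjusted p threshold, against 4.47% of all genes (2.35% lower and 2.12% higher in scurfy). Groups did not overlap for 2 of the 6 (Clk1 and Clk3), against 27.1% of all genes (13.7% with scurfy below and 13.4% with scurfy above). Since the members were chosen on this contrast, nothing is read from these counts. The members' median log2 fold change was 0.07, and that of all genes was 0.01.

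Within each library, Clk1 can be set against its paralogs, so that the size factor cancels out. These ratios use the same Clk1 values as the contrast and are a description too. Clk1 made up 35.5%, 37.3% and 32.2% of the summed normalized counts of the 4 Clk genes in scurfy and 50.7%, 48.2% and 51.6% in wild type. Every scurfy library was thus below every wild type library, with means of 35.0% ± 2.59 and 50.2% ± 1.79 (SD, n = 3 each). The mean share of Clk2 was 24.8% in scurfy and 19.0% in wild type, that of Clk3 23.6% against 17.2%, and that of Clk4 16.6% against 13.7%.

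The ratio of Clk1 to Clk3 was the steadiest among libraries, at 1.51, 1.51 and 1.42 in scurfy and 2.91, 2.88 and 2.94 in wild type. Clk1 to Clk2 was 1.37, 1.66 and 1.24 against 3.01, 2.31 and 2.69. Clk1 to Clk4 was 2.35, 2.42 and 1.69 against 3.36, 3.38 and 4.46. None of these ratios overlapped between groups. The summed count of Clk2, Clk3 and Clk4 did overlap, at 3427, 3217 and 3267 in scurfy and 2902, 3308 and 2914 in wild type. Adding Clk1 gave 5310, 5133 and 4819 against 5881, 6384 and 6026, so the 4 Clk genes together were lower in each scurfy library.

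**Figure D2:**
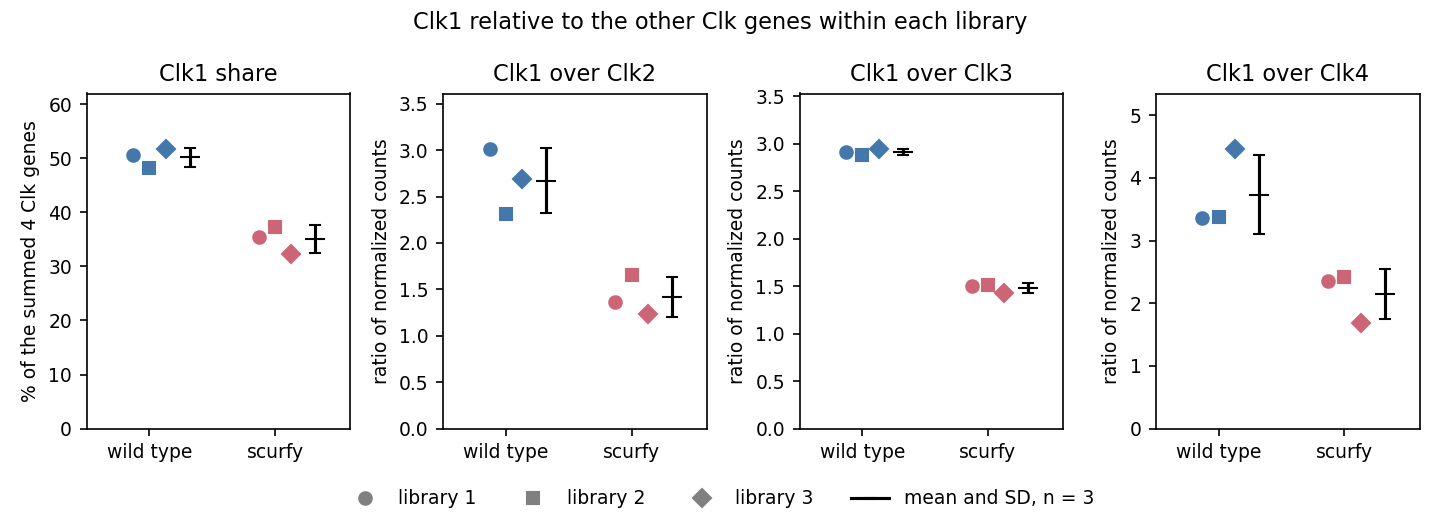
Clk1 as a percentage of the summed normalized counts of the 4 Clk genes (left) and as a ratio to Clk2, Clk3 and Clk4, 1 point per library with the mean and SD of 3 libraries per group. In every panel the scurfy libraries lie below the wild type libraries, and the share is 32.2% to 37.3% against 48.2% to 51.6%.

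The Srpk pair showed no such separation. Srpk1 to Srpk2 was 2.70, 2.69 and 2.65 in scurfy and 2.02, 2.04 and 2.77 in wild type. Wild type library 3 therefore lay above all scurfy libraries while the other two lay below them. Clk1 to Srpk1, a ratio across the families, was 0.735, 0.698 and 0.413 in scurfy and 1.15, 1.23 and 1.25 in wild type.

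Levels of different genes were compared per kilobase of the longest protein-coding transcript. On that scale Clk1 was the highest of the kinases, at 993.3 ± 112 in scurfy and 1702 ± 38.3 in wild type (SD, n = 3 each). Srpk1 followed at 649.7 ± 139 and 543.1 ± 13.9, and Clk2 at 586.4 ± 51.1 and 538.5 ± 79.3. These neighbours overlapped in both groups. Clk3 was at 482.0 ± 39.3 and 420.7 ± 9.09, and Clk4 at 430.3 ± 36.6 and 426.8 ± 59.6, and this pair overlapped in both groups as well. Srpk2 was the lowest, at 174.2 ± 39.3 and 174.9 ± 32.3. Division by length can understate long transcripts in libraries primed at the 3' end. Srpk2 (6491 bases) is the longest of the 6 transcripts and Clk1 (1796 bases) the shortest. Without the division the order at the top turned in scurfy only, with mean normalized counts of 3023 for Srpk1 and 1784 for Clk1. In wild type Clk1 stayed above Srpk1, at 3056 against 2527.

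The counts are per gene and cannot separate spliced forms. GENCODE M21 lists 13 Clk1 transcripts, of which 1 is protein coding and 7 are annotated as retaining an intron, and Clk4 has 7 such forms among 14. Clk2 has 4 of 11, Clk3 4 of 9, Srpk1 6 of 13 and Srpk2 3 of 10. Intron-retaining forms of Clk1 are known as a nuclear reserve that is spliced on demand, and the gene count adds them to the coding form.

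The genes around the kinases were taken from 4 lists with 78 measured genes: SR proteins, other splicing proteins with arginine/serine domains, related kinases, and the phosphatases, chaperones and import factors of the pathway. With limma and Benjamini-Hochberg adjustment over all 11581 genes, 7 of the 78 passed the threshold, 6 lower and 1 higher in scurfy. The background, again, was 4.47% of all genes.

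Of the 13 SR proteins, the main substrates of both kinase families, 2 fell, none rose and 11 did not pass. Their fold changes ran from -0.53 to 0.17 on the log2 scale with a median of -0.31, against 0.01 for all genes, and 10 of 13 were negative, against 48.9% of all genes. Srsf6, an SR protein that acts on alternative exons, was at 1848, 1782 and 1506 in scurfy and 2350, 2129 and 2494 in wild type. All scurfy values were below all wild type values, a log2 difference of -0.44 (SE 0.11, limma adjusted p = 0.041). Tra2a, an SR-like activator of exons, was at 712, 872.6 and 685.6 in scurfy and 1062, 985 and 1075 in wild type. Its groups did not overlap either, with a log2 difference of -0.47 (SE 0.13, limma adjusted p = 0.0495). No SR protein passed when any 1 of the 6 libraries was left out, the highest limma adjusted p being 0.129 for Srsf6 and 0.133 for Tra2a, both without wild type library 3.

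Among the 33 other splicing proteins with arginine/serine domains, 2 fell, none rose and 31 did not pass, with a median log2 fold change of -0.09. Rsrp1, a nuclear protein rich in arginine and serine, showed the same kind of gap as Clk1. It was at 3435, 3664 and 3417 normalized counts in scurfy and 5219, 5447 and 5504 in wild type. The groups were far apart, with a log2 difference of -0.62 (SE 0.10, limma adjusted p = 0.00479), and it passed in 14 of 14 alternative analyses. Rsrc2, another member of that list, was at 902.1, 1076 and 838.1 against 1340, 1295 and 1398. Its log2 difference was -0.52 (SE 0.12, limma adjusted p = 0.0266), and it passed with 1 library left out only without scurfy library 2, its adjusted p reaching 0.0875 without wild type library 3.

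Of the 16 measured related kinases and their cyclins, 1 fell and 15 did not pass, with a median log2 fold change of 0.07. The gene that fell was Dyrk2, a dual-specificity kinase of the same larger group as the Clk kinases. It was at 693.8, 660.2 and 453.9 in scurfy and 1055, 870.9 and 856.9 in wild type, a log2 difference of -0.64 (SE 0.16, limma adjusted p = 0.0375). Its groups did not overlap, with scurfy library 3 the lowest. With 1 library left out it passed only without scurfy library 1, and its adjusted p reached 0.118 without wild type library 1.

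Of the 16 phosphatases, chaperones and import factors, 1 rose, 1 fell and 14 did not pass, with a median log2 fold change of 0.01. The genes that passed encode catalytic subunits of protein phosphatase 1, which removes phosphate from SR proteins, and they moved in opposite directions. Ppp1ca was at 4524, 4723 and 4689 in scurfy and 3670, 3323 and 3564 in wild type, a log2 difference of 0.40 (SE 0.10, limma adjusted p = 0.0308). Ppp1cb was at 213.1, 190.4 and 132.4 against 301.7, 332 and 313.9, a log2 difference of -0.85 (SE 0.20, limma adjusted p = 0.0286). Neither gene's groups overlapped. Ppp1ca did not pass when any 1 library was left out (highest adjusted p 0.114, without wild type library 2), and Ppp1cb passed then only without scurfy library 1 (highest 0.101, without wild type library 2). The calls of Srsf6, Tra2a, Rsrc2, Dyrk2, Ppp1ca and Ppp1cb also ended once a trend of fold change with transcript length was removed.

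**Figure D3:**
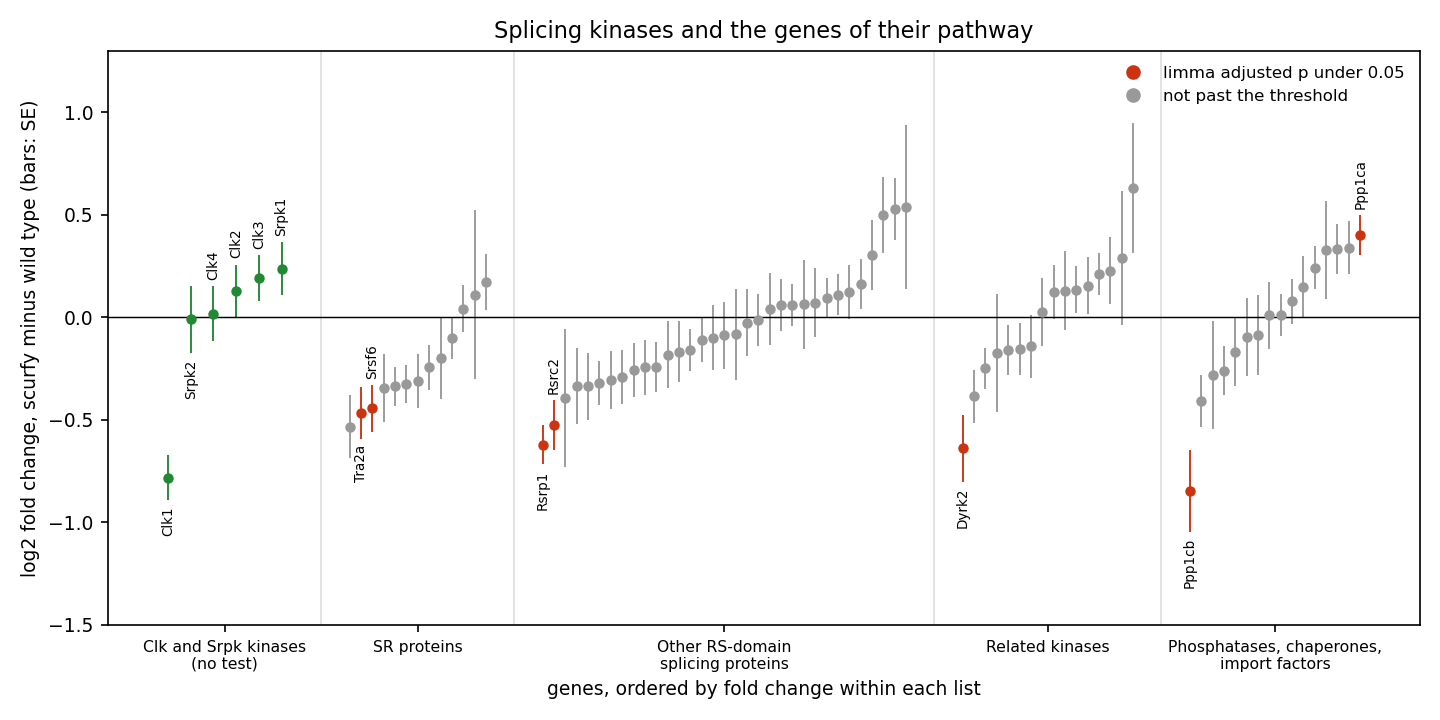
Log2 fold change (y axis, scurfy minus wild type, bars are the SE of the fit on 3 against 3 libraries) of the 6 kinases (green, no test) and of the 78 measured genes of 4 pathway lists, ordered within each list. Red points passed a limma adjusted p of 0.05: Srsf6, Tra2a, Rsrp1, Rsrc2, Dyrk2 and Ppp1cb lie below 0 and Ppp1ca above, while Clk1 at -0.78 lies apart from the other kinases, which run from -0.01 to 0.24.

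Splicing of Clk1 transcripts is known to respond to heat and other stress, so genes that react to cell handling were read beside it. Of 16 measured early response and heat shock genes, limma called 0, with 5 at an unadjusted p under 0.05, while edgeR called 1, DESeq2 2 and voom 0. Over all 11581 genes, 2456 had an unadjusted limma p under 0.05. Calls over all genes were 518 with limma, 561 with edgeR, 891 with DESeq2 and 539 with voom. The median log2 fold change of the 16 genes was -0.15. The gene with the smallest p was Zfp36, which binds and destabilises messenger RNAs, at a log2 difference of -0.57 (limma adjusted p = 0.0614). Of 3 measured nuclear noncoding RNAs, limma, edgeR, DESeq2 and voom each called 0, and Neat1, the scaffold of paraspeckles, had the smallest p at a log2 difference of -0.31 (limma adjusted p = 0.204). The summed level of the 3 was 6726, 8768 and 17270 in scurfy and 8112, 11000 and 6478 in wild type. It was highest in scurfy library 3, where Malat1 was at 15110. The part of these genes' responses in the Clk1 difference was not tested.

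Across 14 alternative analyses the log2 difference of Clk1 ran from -0.92 to -0.69. The value nearest 0 came without scurfy library 3, the lowest Clk1 library. The value farthest from 0 came from scaling by library size, which shifted the median of all genes by -0.14, and relative to that median Clk1 was at -0.79. Clk2 and Clk4 were at -0.01 and -0.12 under that scaling, and at 0.12 and 0.01 relative to the same median.

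**Figure D4:**
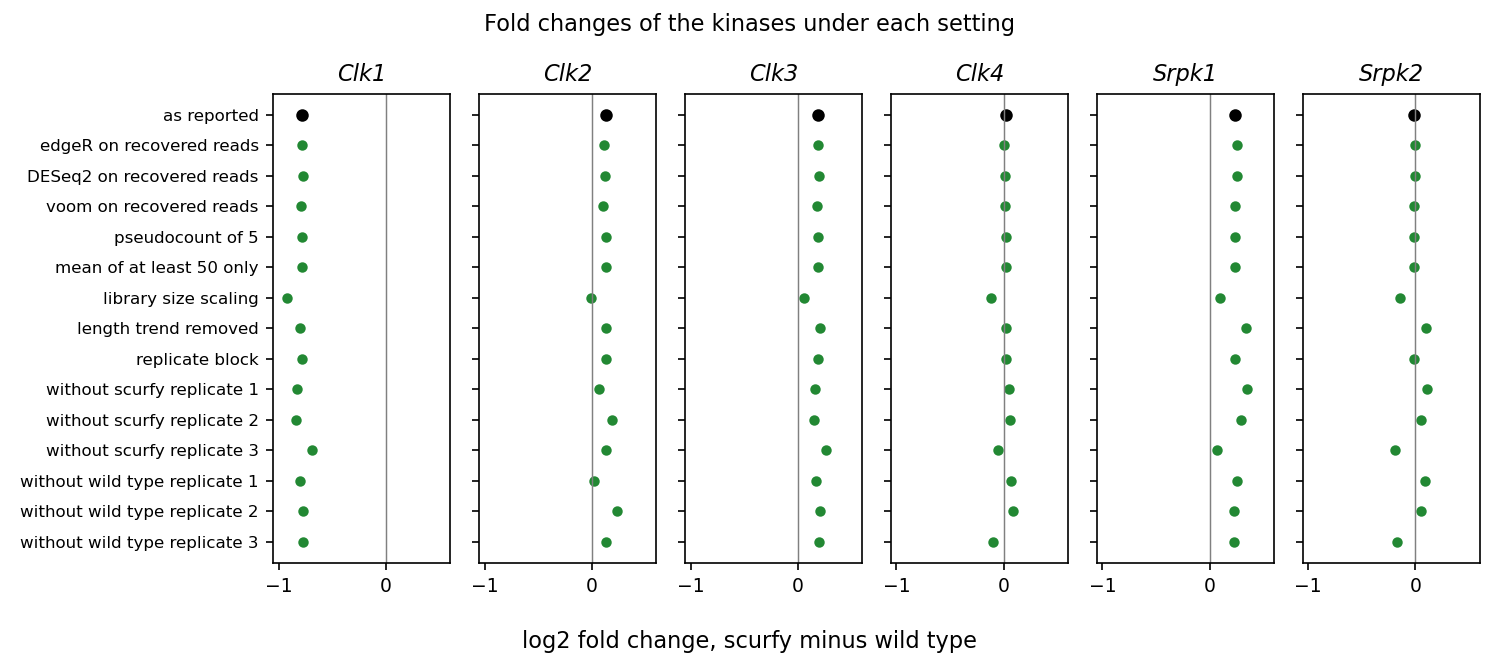
Log2 fold change (x axis, scurfy minus wild type) of each kinase as reported (black) and under 14 alternative analyses (green, 1 per row), including 6 that leave out 1 library. Clk1 stays between -0.92 and -0.69, whereas Clk4 and Srpk2 lie on both sides of 0, Clk2 ranges from -0.01 (library size scaling) to 0.23 and Srpk1 from 0.07 to 0.35.

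The genes whose pattern over the 6 libraries was most like each kinase were ranked by Pearson correlation of log2 values over the 9027 genes whose mean reached 50. The libraries share the group difference and their scaling, so these are descriptions over 6 points. For Clk1 they were Aggf1 and Atl2, both with r of 0.998, and 189 genes exceeded 0.95. For Clk2 they were Sc5d (0.984) and Wfikkn2 (0.978), and for Clk3 Sdf4 (0.999) and Ccdc107 (0.992). For Clk4 they were Polr3d (0.997) and Gm15472 (0.989), for Srpk1 Lsm2 (0.990) and Dhx30 (0.984), and for Srpk2 2210015D19Rik (0.993) and Ampd1 (0.988). The number of genes above 0.95 was 14 for Clk2, 32 for Clk3, 16 for Clk4, 38 for Srpk1 and 24 for Srpk2.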

How the data were processed

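Libraries were made from poly(A) RNA with oligo-dT primers that carry an index, followed by linear amplification as RNA and fragmentation, and were read on an Illumina NextSeq 500, per the labels' protocols. The submitters' processing notes name Trim Galore 0.4.4, STAR 2.6, featureCounts, edgeR, DESeq2 and build NCBIM37, without roles. The deposited values are a signal, read counts divided by a size factor, and all nonzero values came to whole reads with a tolerance of 0.01 read, so reads could be recovered. The deposited table also holds, per the file headers, the authors' log2 fold change, test score, and p-value with its adjusted form, which were not used here. The deposited table for stimulated cells held identical values under the same 6 unstimulated library names, so the stimulated libraries were not analysed here. The table's smallest mean is 7.10 normalized counts, and no level is inferred for genes without a row.

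The planned test for normalized values was used: limma 3.58.1 (R 4.3.3) on log2(value + 1), with variance trend and robust moderation, 3 against 3 libraries, no covariate, and Benjamini-Hochberg adjustment over all genes at 0.05. Alternatives were edgeR 4.0.16, DESeq2 1.42.0 and voom on recovered reads, a pseudocount of 5, a mean of at least 50, library size scaling, removal of a length trend (loess, span 0.3, on 11571 genes matched to GENCODE M21), a replicate block, and leaving out each library. The script was tested on simulated data. Members and lists were chosen with earlier results of these data known. Named genes were the 6 members, up to 4 called genes per list by smallest p (or the smallest p where none passed), every SR protein called, and the 2 genes most like each member. By that rule the CD8 identity genes Cd3d and Cd2 are also named: they rose by 0.76 and 0.43 on the log2 scale (limma adjusted p = 0.00551 and 0.0376), and Cd2 did not pass when any 1 library was left out (highest adjusted p 0.129, without wild type library 3).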

Additional observations from a re-analysis of the deposited data

How the results depend on the processing

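Of all genes, 518 were called (246 higher, 272 lower in scurfy). DESeq2 called 891, and library size scaling called 929 (168 higher, 761 lower). Removing the length trend left 251 calls, and leaving out 1 library gave 113 to 403. Of the 78 pathway genes 7 were called, against 12 with DESeq2, 14 with library size scaling (0 higher), 2 without the length trend (Rsrp1 and Son) and 1 to 4 with 1 library left out. Library size scaling moved Clk1 to -0.92 and Clk3 to 0.056, which relative to the shifted median of all genes are -0.79 and 0.18. The cause of the other moves was not tested.

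Whether replicate numbers pair the libraries was not settled. Deviations from the group means correlated at -0.03, -0.07 and -0.15 for same-numbered libraries, and at -0.12 to 0.16 for differently numbered ones. Deviations within a group of 3 sum to 0, so these values cannot show if libraries were paired. The replicate block gave 372 calls over all genes, 356 of them shared with the fit without it, and 4 among the pathway genes (Dyrk2, Ppp1cb, Rsrc2 and Rsrp1). Member fold changes were the same with the block. Leaving out 1 library gave -0.84 to -0.69 for Clk1, 0.02 to 0.23 for Clk2, 0.15 to 0.26 for Clk3, -0.10 to 0.09 for Clk4, 0.07 to 0.35 for Srpk1 and -0.19 to 0.10 for Srpk2. The members rested on 650 reads or more in each library. In the library with fewest reads, the counting error from read number alone was 2.26% (Srpk1) to 3.92% (Clk4) of the value. For Clk3 it was 3.60%, and its part in the narrow gap between the Clk3 groups was not tested.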
